A study of Mus musculus with 12 samples.

Results

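Osteoblast-like cells that carry the knockout (KO) label for F2rl1, which encodes protease-activated receptor 2 (PAR2), were compared with cells titled wild type (WT) after culture in medium that no tumour cell had conditioned. The comparison takes the 6 samples titled as unconditioned controls, 3 KO and 3 WT, out of 12 in the series. In the deposited table, WT libraries 0 and 1 were the same library (91.6% of 16042 genes had exactly equal fragment values, with a tolerance of 0, and a chi-square of 759 on 16041 degrees of freedom lay below sampling noise, against 95718 on 15944 for the next-closest pair, KO 1 and KO 2). They were counted as 1 sample, which left 5 distinct libraries: KO 0, KO 1 and KO 2 against WT 0 and WT 2. KO and WT stand throughout for libraries labelled so.

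All mice were of the C57Bl/6J strain, and per the labels the KO genotype is F2rl1 -/-. The skull bones (calvariae) of newborn mice were digested with collagenase in successive rounds, and the released cells were grown for 48 h, then for 4 days in BRFF-HPC1, a medium made for prostate cells, with 20% fetal calf serum. The same medium conditioned for 48 h by MDA-PCa-2b, a human prostate cancer line, was given to the other 6 samples, which enter here only to estimate the spread and to test the interaction. RNA with an integrity number over 7.5 was sequenced without strand information. The labels name no promoter, Cre or targeted exon for the F2rl1 allele, and no label states how many animals a group came from, so p-values reflect only how these samples vary, which may be technical. 1 sample titled WT carries the F2rl1 -/- genotype label, and the sources used here do not tie the library numbers to the sample titles. It was kept by its title, and cannot be told apart from the other WT libraries here.

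PAR2 is a G protein-coupled receptor that is switched on when a protease cuts its extracellular end and frees a tethered ligand. Trypsin, mast cell tryptase, matriptase and the tissue factor complex with factors VIIa and Xa are known activators, while PAR1, encoded by F2r, answers to thrombin. Downstream, Gq and G12/13 proteins and beta-arrestins carry the signal to calcium, RhoA and MAP kinases. Osteoblasts are known to carry both receptors. They lay down a collagen I matrix, mineralise it, and control osteoclasts through RANKL (Tnfsf11) and its decoy osteoprotegerin (Tnfrsf11b).

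At gene level few differences passed the test in unconditioned medium. Of 13603 genes tested, 1 was called (edgeR quasi-likelihood test, adjusted p under 0.05), which is 0.00735%. This was Pisd-ps3, a transcribed pseudogene related to phosphatidylserine decarboxylase, and it was lower in KO. An unadjusted p under 0.05 was reached by 294 genes (2.16%), of which 182 were higher in KO (1.34%) and 112 lower (0.823%). The next-smallest adjusted p was 0.998, so no other difference below passed the test, and values are given as measured. The log2 difference, KO minus WT, was positive for 51.8% of genes with a median of 0.01. KO and WT libraries did not overlap for 17.1% of genes, with KO above WT for 9.12% and below for 8.01%. A difference over 2-fold either way was estimated for 3.19% of genes.

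F2rl1 itself was not lower in the KO libraries. It drew 33 fragments in KO 0, 33 in KO 1 and 46 in KO 2, against 25 in WT 0 and 20 in WT 2. As CPM, counts scaled to library depth with TMM factors, the KO libraries held 2.23, 2.33 and 3.10 and the WT libraries 1.64 and 1.40. Every KO library lay above both WT libraries. The log2 difference was 0.74 with a standard error (SE) of 0.48 and a 95% interval of -0.32 to 1.81 (adjusted p = 0.998 in edgeR). In conditioned medium the groups overlapped, at 1.93, 0.791 and 0.647 CPM in KO and 0.901, 1.55 and 0.927 in WT. The log2 difference there was -0.01 (SE 0.44). Levels of this size rest on few fragments, and the gene (chr13:95511730-95525240) had a single start-site group and transcript in the table, so a value for a deleted part alone was not obtained. A count over the whole gene does not show whether a functional receptor was made. In unconditioned medium this count set the KO libraries above WT rather than below, and in conditioned medium the groups overlapped.

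**Figure D1:**
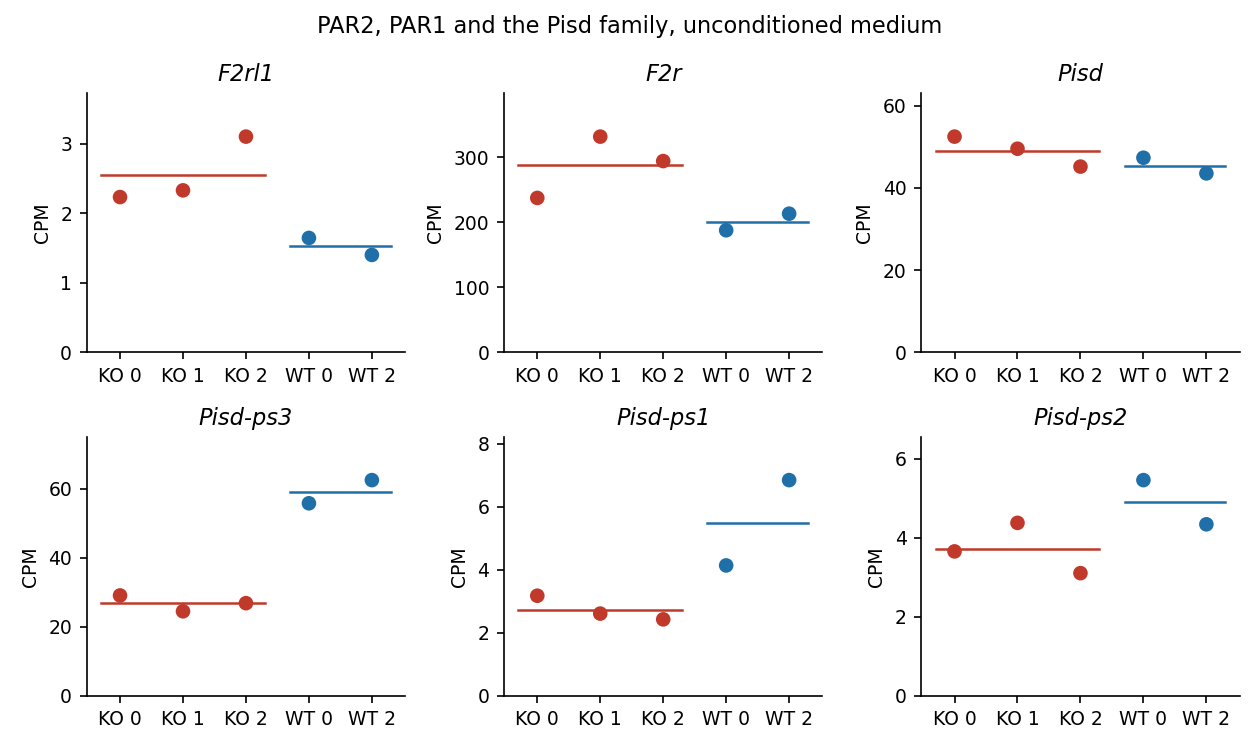
Level in CPM (vertical axes, each starting at 0) of F2rl1, F2r, Pisd and the 3 Pisd pseudogenes in each KO library (red points) and WT library (blue points); horizontal lines are group means. F2rl1 is not lower in KO, and the Pisd-ps3 points fall in separate ranges, 24.5 to 29.1 CPM in KO and 55.8 to 62.5 CPM in WT.

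The thrombin receptor gene F2r, which lies next to F2rl1 at chr13:95601789-95618433, was the abundant member of the family. Its CPM was 237, 331 and 294 in KO 0, KO 1 and KO 2, and 187 and 213 in WT 0 and WT 2. The KO libraries were all above the WT libraries, with a mean of 287 ± 47.5 (SD, n = 3) against 200.2 ± 18.0 (SD, n = 2). The log2 difference was 0.52 (SE 0.16, interval 0.17 to 0.87), and it did not pass the test over all genes (adjusted p = 0.998 in edgeR). In conditioned medium the difference was 0.18 (SE 0.14), and the change between the media was not called (interaction adjusted p = 0.819). F2rl3, the PAR4 gene, stayed at 0.0657 to 0.0705 CPM in all 5 libraries, and F2rl2, the PAR3 gene, had 0.338 CPM in KO 0 and was at 0 elsewhere. Neither was high enough to test.

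The neighbours of the targeted locus were examined next. Within 1 Mb of F2rl1 the table lists 17 other genes, F2r among them, and 12 of them were high enough to test. None was called, and 5 of the 12 had separated libraries, against 17.1% of all genes. F2r (above) was one, and Aggf1, Ankdd1b, Wdr41 and Crhbp lay below WT. Aggf1, an angiogenic factor gene, gave the values 43.5, 38.01 and 40.4 CPM in KO against 47.2 and 46.5 in WT, a log2 difference of -0.21 (SE 0.10). Ankdd1b, an ankyrin-repeat gene near the limit of detection, held 0.879, 0.776 and 0.674 CPM in KO and 1.18 and 1.68 in WT (-0.87, SE 0.38). Polk, which encodes DNA polymerase kappa, gave 98.8, 60.4 and 50.4 CPM in KO against 103 and 98.1 in WT (-0.53, SE 0.24), with KO 0 at the WT level. Pde8b, a cyclic AMP phosphodiesterase, ran the other way at 2.37, 4.87 and 7.28 CPM against 2.89 and 2.098 (0.95, SE 0.47). Crhbp, the gene of a protein that binds corticotropin-releasing hormone, had the largest difference but at most 12 fragments, with 0, 0.282 and 0.404 CPM in KO against 0.788 and 0.629 in WT (-1.60, SE 1.14). Wdr41 was at 28.4, 29.3 and 28.9 CPM against 31.9 and 29.6 (-0.09, SE 0.12). Iqgap2, which encodes a scaffold protein of the cytoskeleton, overlapped, with KO 0 apart at 184 CPM and KO 1 and KO 2 at 99.1 and 87.9 against 99.02 and 115 (0.21, SE 0.53). Ap3b1, Poc5, Tbca and Zbed3 also overlapped, with differences between -0.06 and 0.19. The 5 neighbours not tested held at most 14 fragments in any library.

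The spread within the KO group was larger than its distance from WT, which sets what this comparison can show. Among the 10655 genes with a mean of at least 5 CPM, 502 (4.71%) differed over 2-fold between KO 0 and KO 1 and 709 (6.65%) between KO 0 and KO 2. Between KO 1 and KO 2 only 29 (0.272%) did, and between WT 0 and WT 2 the number was 70 (0.657%). KO 0 was close to WT 2, with 38 genes (0.357%) over 2-fold apart, while KO 2 and WT 2 differed in 489 (4.59%). The group means differed over 2-fold for 42 genes (0.394%). KO 0 lay closer to the WT mean than to the other KO libraries for 80.1% of these genes, and between KO 1 and KO 2 for 10.8%. On the first principal component of the 5 libraries, which held 70.5% of the variance, KO 0 lay at -29.2, beyond WT 2 at -20.9 and WT 0 at -8.89, while KO 1 and KO 2 lay at 24.8 and 34.2. The range of the 3 KO libraries exceeded the gap between the group means for 88.1% of the genes (median range 0.31 and median gap 0.13, both on the log2 scale). Leaving out KO 0 raised the genes with an unadjusted p under 0.05 from 294 to 1933, and the calls from 1 to 2. The second was Npy, the gene of neuropeptide Y, named here after its values were seen, at 0.744, 8.46 and 8.69 CPM in KO 0, KO 1 and KO 2 against 0.591 and 0.769 in WT. Without KO 1, KO 2, WT 0 or WT 2 there were 70, 82, 169 and 134 such genes.

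**Figure D2:**
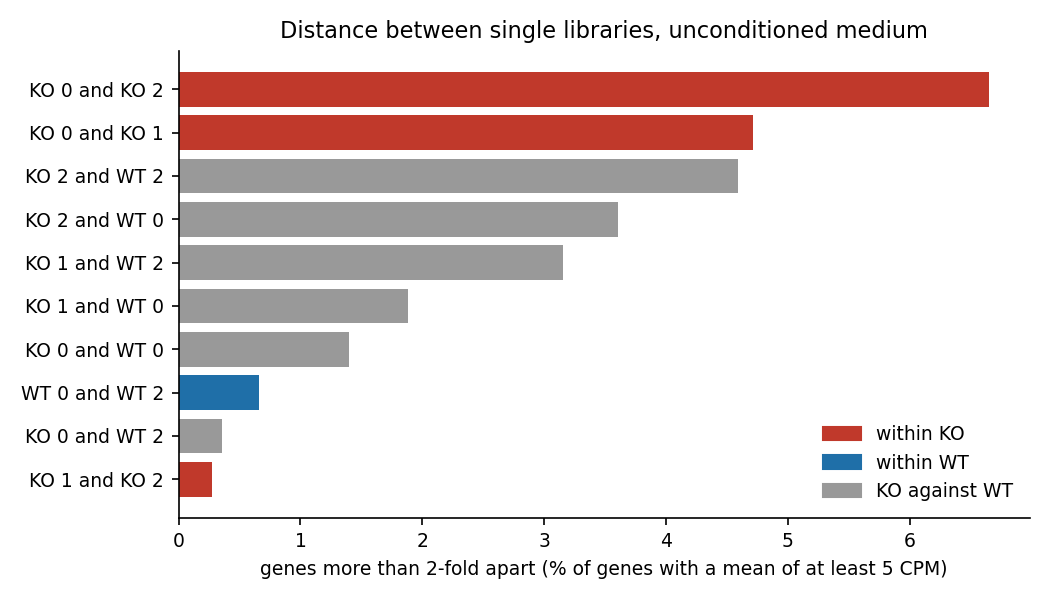
Share of the 10655 genes with a mean of at least 5 CPM that lay over 2-fold apart (horizontal axis, percent) in each pair of single libraries; red bars are pairs within KO, the blue bar is the pair within WT, and grey bars pair a KO with a WT library. KO 0 is 4.71% and 6.65% away from the other KO libraries and 0.357% away from WT 2.

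The libraries held 15885129, 15817823 and 16459099 gene fragments (KO 0 to KO 2) and 16309121 and 15023994 (WT 0 and WT 2). The osteoblast-like label was matched by collagen I and by the transcription factors Runx2 (80.5 to 96.5 CPM) and Sp7 (23.6 to 40.8 CPM), but the late markers Bglap, Dmp1 and Mepe were at or near 0. Skeletal muscle genes stood apart in WT 0, at a summed 458 CPM for the 33 listed genes against 70.1 in WT 2 and 74.1 to 165 in KO. All 29 tested muscle genes were lower in KO with WT 0 included (median log2 -1.24), and 25 of 29 were higher in KO without it (median 0.76). The keratin gene Krt5 also peaked in WT 0 at 11.8 CPM, against 0 to 1.28 elsewhere. The 22 macrophage and leukocyte genes in the table summed to 61.3 to 94.2 CPM in KO and 74.2 and 113 in WT, and the 9 erythroid genes held at most 3 fragments each. Xist, transcribed from the inactive X chromosome, and Y-linked genes were present together in all 5 libraries. KO 0 and KO 1 had more Xist (547 and 653 CPM) and less Y-linked RNA (a summed 72.7 and 77.8 CPM) than KO 2 (307 and 185 CPM), WT 0 (334 and 130 CPM) and WT 2 (327 and 171 CPM). In bulk RNA, fewer cells of a type and less RNA per cell cannot be told apart. The part of these markers in the differences described here was not tested.

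Pisd-ps3 was the 1 gene called. Its fragments numbered 430, 347 and 398 in KO 0, KO 1 and KO 2 and 849 and 894 in WT 0 and WT 2. In CPM the KO libraries were tightly grouped at 29.1, 24.5 and 26.8, a mean of 26.8 ± 2.299 (SD, n = 3), and the WT libraries stood at 55.8 and 62.5, a mean of 59.1 ± 4.75 (SD, n = 2). KO 0, which resembled WT in most genes, lay with the other KO libraries here. Pisd-ps3 fell by 1.14 on the log2 scale (SE 0.12, interval -1.41 to -0.87, adjusted p = 0.0355 in edgeR). The call was lost without KO 1 (adjusted p = 0.324), KO 2 (0.328), WT 0 (0.311) or WT 2 (1), and when only the unconditioned libraries were fitted (0.834), while the difference stayed between -1.22 and -1.06. The entry (XLOC_024266) lies on an unplaced contig of GRCm38, JH584304, from 51965 to 60879, where GENCODE vM21 places a gene named AC149090.1. It has close relatives elsewhere in the genome, so the authors' assignment of fragments among them makes its level uncertain.

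In conditioned medium, where no library is shared, the same entry also separated the genotypes. The KO libraries held 38.6, 44.2 and 39.8 CPM and the WT libraries 67.0, 73.2 and 77.8. No KO library reached any WT library, and the log2 difference was -0.83 (SE 0.11), which did not pass the adjustment over all genes there (adjusted p = 0.249 in edgeR). The change between the media was 0.31 (interaction adjusted p = 0.819). Over all genes tested, KO libraries with the same number in the 2 media deviated together from their group means (r = 0.281 to 0.354). The conditioned values are thus not shown to be an independent repeat. Both start-site groups of the gene were lower in KO. One held 7.50, 6.79 and 6.48 CPM in KO against 21.2 and 27.6 in WT (log2 difference -1.82, SE 0.20, adjusted p = 0.0788 over start-site groups). The other held 21.5, 17.7 and 20.4 CPM against 34.5 and 34.9 (-0.80, SE 0.12, adjusted p = 0.263).

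The functional parent gene Pisd, whose enzyme makes phosphatidylethanolamine in mitochondria, did not follow its pseudogene. It was measured at 52.5, 49.6 and 45.2 CPM in KO and 47.4 and 43.6 in WT, ranges that overlapped, and the log2 difference was 0.11 (SE 0.12, interval -0.15 to 0.37). Pisd-ps1 was low and lower in all KO libraries, at 3.18, 2.61 and 2.43 CPM against 4.14 and 6.85 (-1.002, SE 0.31, adjusted p = 0.998). For Pisd-ps2 the difference was -0.40, and KO and WT libraries overlapped.

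The genes with the largest differences were taken from 129 that had an unadjusted p under 0.05, libraries that did not overlap and a mean of at least 5 CPM. Of these, 76 were higher in KO and 53 lower, and the 10 largest each way are described, with Pisd-ps3 (above) among the 10 lower genes and no other of them called. As they were chosen for their differences, their values are a description. Prelp, which encodes a leucine-rich proteoglycan of cartilage and bone matrix, had the largest positive difference. It was at 121 CPM in KO 0, close to 118 and 117 in WT 0 and WT 2, and at 405 and 410 in KO 1 and KO 2 (log2 1.41, SE 0.54). Igfbp2, a binding protein that keeps insulin-like growth factors (IGFs) from their receptor or presents them to it, showed the same order, at 178, 381 and 584 CPM in KO against 164 and 145 (1.3, SE 0.50). For both genes most of the group difference came from KO 1 and KO 2.

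Among the remaining genes with higher values in KO, 7 had KO 0 just above WT and the other KO libraries well above it. These were Gfra4 (counted together with Mir6973b), a co-receptor of the GDNF family, the zinc-finger gene Jazf1, the axonal contact gene Cntnap1, the apoptosis repressor Nol3, the centromere gene Cenpq, the MHC class II peptide-loading genes H2-DMb1 and H2-DMb2, counted as 1 entry, and the AMPK-related kinase gene Nuak1. Their log2 differences ran from 0.75 (Nuak1) to 1.06 (Gfra4). Egln3 was the exception. This oxygen-sensing prolyl hydroxylase, itself a target of hypoxia-inducible factors, was at 30.6, 31.0 and 30.5 CPM in the KO libraries and at 17.6 and 18.1 in WT. The groups were tight and well separated, at 30.7 ± 0.27 (SD, n = 3) against 17.9 ± 0.35 (SD, n = 2). Its difference was 0.78 (SE 0.33, adjusted p = 0.998 in edgeR). In conditioned medium the groups overlapped, at 10.2, 9.31 and 10.8 CPM in KO and 9.27, 4.9955 and 14.7 in WT (0.07, SE 0.30).

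Lower values in KO were led by Dpt, which encodes the matrix protein dermatopontin. It was at 7.30, 5.78 and 4.92 CPM in KO against 23.2 and 11.0 in WT (log2 -1.51, SE 0.56). An entry under Zc3h7a, an RNA-binding zinc-finger gene, held 77.0, 83.5 and 165 CPM in KO and 383 and 232 in WT (-1.50, SE 0.48). Mrgprf, an orphan receptor of the Mas family, was at 17.5, 13.8 and 17.8 CPM against 29.9 and 25.5 (-0.76, SE 0.31). The lipid carrier gene Apoe was at 20.6, 14.0 and 16.6 CPM against 23.3 and 33.9 (-0.74, SE 0.32).

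A pair of cytoskeletal genes of progenitor and neural cells followed, Map1b at 185, 111 and 111 CPM against 208 and 233 (log2 -0.70, SE 0.31) and nestin, Nes, at 20.5, 11.9 and 15.4 against 28.8 and 22.9 (-0.70, SE 0.23). Eno3, the muscle form of enolase, was at 7.33 to 7.64 CPM in KO and at 16.95 in WT 0, the library rich in muscle RNA, against 8.53 in WT 2. The part of muscle RNA in that difference was not tested. The heat-shock gene Hspa1b (-0.80) and the predicted gene Gm7120 (-0.74) completed the 10 with Pisd-ps3. In conditioned medium, 6 of the 10 higher genes again had a positive difference and 8 of the 10 lower genes, Pisd-ps3 among them, a negative one. Over all genes, 56.9% of those with a positive difference in unconditioned medium were positive in conditioned medium too, and 60.3% of those with a negative difference were again negative.

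**Figure D3:**
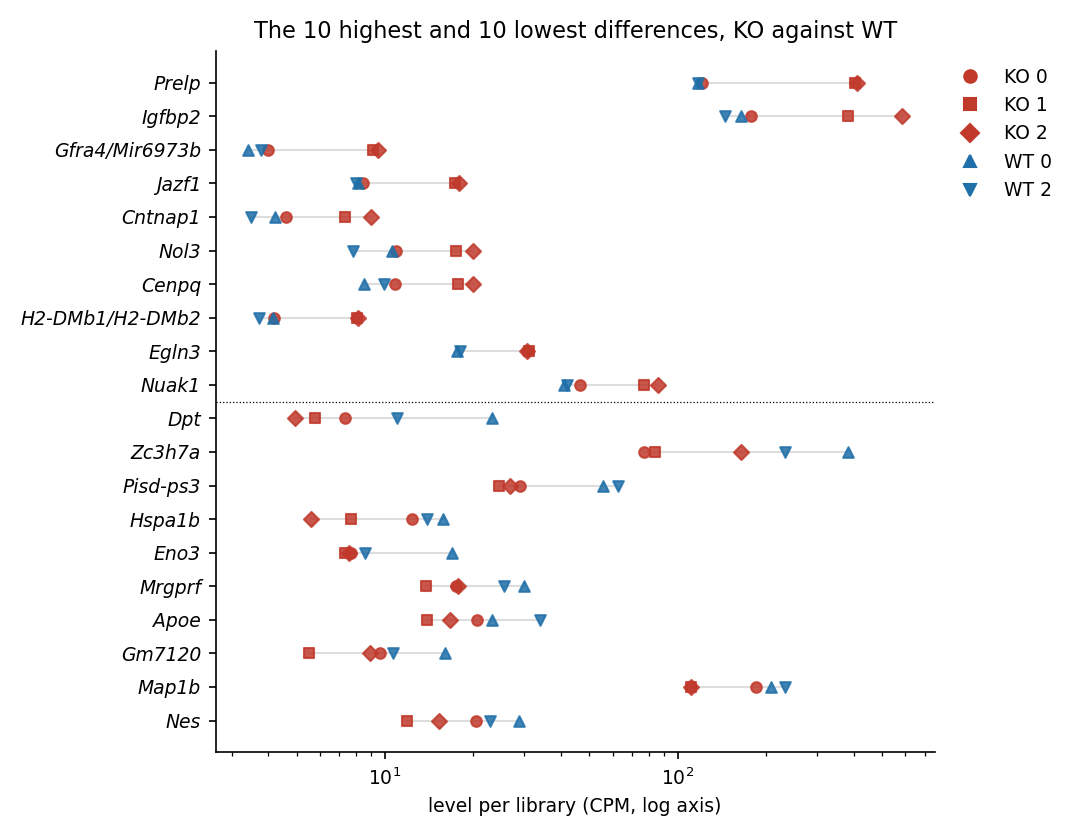
Level of each of the 20 genes with the largest differences (rows) in each library (CPM, log axis); red symbols are KO libraries, blue triangles are WT libraries, and the dotted line divides genes with higher and lower values in KO. In the upper block KO 0 mostly sits beside the WT libraries, as for Prelp at 121 CPM against 117 and 118. In Egln3 and Pisd-ps3, and in others such as Mrgprf, the 3 KO libraries sit together, away from WT.

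The most abundant transcripts per unit length (by mean FPKM, fragments scaled by gene length and depth) were matrix, iron-storage and housekeeping products but for an entry under Spata6, and none of the 10 was called. Fth1, the ferritin heavy chain, was at 5315, 5992 and 6130 CPM in KO against 5126 and 5124 in WT, with a log2 difference of 0.18 (SE 0.30). Rplp1, a ribosomal stalk protein, was at 657, 801 and 845 CPM against 653 and 488 (0.43, SE 0.18). Timp1, an inhibitor of matrix metalloproteinases, was at 2239, 2306 and 1967 against 1591 and 1645 (0.42, SE 0.50). In these 3 genes the KO libraries all exceeded WT, whereas Spp1, Col1a1, Col1a2, Sparc, Bgn, Eef1a1 and the Spata6 entry overlapped. That entry ranked among the 10 by FPKM with only 7.13 to 9.94 CPM. Osteopontin, Spp1, had a difference of 0.01 (SE 0.71).

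Gene lists were then read by counts and medians, beside the same over all genes (51.8% positive, median 0.01). No list had a called member other than Pisd-ps3. The PAR2 signalling list, 29 genes of G proteins, arrestins, phospholipases and kinases, was all tested and gave small point estimates. The log2 difference was positive for 9 of 29, with a median of -0.04 and a range of -0.27 to 0.29. KO lay above WT for 4 of the 29 and below for 3, beside 9.12% and 8.01% of all genes. The intervals were wider than the estimates, at -0.32 to 0.17 for Gnaq and -1.23 to 0.93 for Arrb1. A larger difference was thus not excluded for members such as Arrb1. Gnas, the stimulatory G protein and the most abundant of them, was at 1712, 1584 and 1579 CPM in KO and 1628 and 1591 in WT (0.01, SE 0.21). Gnaq was at 114, 102 and 104 against 107 and 118 (-0.08, SE 0.11), and the arrestin gene Arrb2 at 5.75, 5.71 and 5.66 against 6.05 and 4.89 (0.06, SE 0.19). Rock1, a kinase that acts below RhoA, had the smallest p of the list (-0.19, SE 0.11).

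Of the 27 proteases that cut PAR2 and their inhibitors, 12 were high enough to test, and 11 held at most 3 fragments in every library, trypsin (Prss1) among them at 0. The positive share was 7 of 12 and the median 0.09. Serpine2, protease nexin 1, was the most abundant at 1347, 1350 and 1359 CPM in KO and 1476 and 1257 in WT (log2 -0.02, SE 0.23). Tissue factor, F3, was at 178, 306 and 311 CPM against 146 and 188, so that KO 0 lay within WT (0.67, SE 0.31). Matriptase, St14, was scarce, at 3.92, 1.13 and 0.606 CPM against 2.56 and 3.01.

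Differences in the list for amino acid supply and the integrated stress response were nearly all positive. This response couples amino acid shortage or other stress, through phosphorylated eIF2 alpha and the factor ATF4, to genes of amino acid synthesis and uptake. Of its 46 genes, all tested, 43 had a positive difference (median log2 0.42), and none was called. Of the 46, 7 had all KO libraries above WT and none below, beside 9.12% and 8.01% of all genes. The list's median level, centred per gene, was -0.29 in KO 0, beside -0.13 and -0.27 in WT 0 and WT 2, and 0.32 and 0.40 in KO 1 and KO 2. The positive values thus belonged to KO 1 and KO 2, and KO 0 was as low as WT. Without KO 0 the median was 0.60, and without KO 2 it was 0.31.

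Asns, asparagine synthetase, was at 129, 315 and 342 CPM in KO and 166 and 139 in WT (log2 0.78, SE 0.45), with KO 0 the lowest of all 5. Trib3, a pseudokinase induced by ATF4, was at 36.4, 141 and 162 against 58.7 and 34.6 (1.28, SE 1.12). Eprs, the most abundant member, charges tRNA with glutamate and proline and was at 372, 572 and 623 CPM against 449 and 399 (0.30, SE 0.39). In all 3 genes KO 0 fell within or below the WT values. Eif4ebp1, a brake on cap-dependent translation, had the smallest p of the list. Its CPM was 107, 134 and 139 against 95.4 and 87.6, with KO above WT (0.47, SE 0.19, adjusted p = 0.998 in edgeR). Vldlr, a lipoprotein receptor, was at 71.8, 101 and 107 against 66.8 and 59.8 (0.56, SE 0.29). Ero1l, which passes oxidising equivalents to folding proteins in the endoplasmic reticulum (ER), belonged to a separate ER list of 25 tested genes, 21 of them positive with a median of 0.13. It was at 131, 202 and 197 CPM against 114 and 107 (0.68, SE 0.36), and Hsp90b1, the list's most abundant chaperone, at 2254, 2873 and 2683 against 2454 and 2303 (0.13, SE 0.21).

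The promoters of the stress response genes were read for the C/EBP-ATF element that ATF4 is known to bind, searched as TGATGNAA on both strands (TTNCATCA when read on the other strand). RefSeq promoters of GRCm38.p6, 300 bases from 250 before to 50 after the start of transcription, were at hand for 36 of the 46 genes. The element was present in 14 of the 36 (38.9%), against 4.51% of all 27025 genes with a promoter. Among promoters counted singly it was 14 of 42 (33.3%) against 1304 of 32851 (3.97%). The list was made of known targets of this response, so the share describes the list. Differences did not divide by the element: 14 of 14 genes with it were positive with a median of 0.42, and 19 of 22 without it, also with a median of 0.42. The promoters shown are those with an element and the smallest p-values, at chr19:27216770-27217069 (plus strand), chr11:120643699-120643998 (minus strand), chr6:7693160-7693459 (minus strand) and chr11:20332664-20332963 (minus strand). Each is written 5′ to 3′ on the gene's strand, with the element in capitals.
Vldlr: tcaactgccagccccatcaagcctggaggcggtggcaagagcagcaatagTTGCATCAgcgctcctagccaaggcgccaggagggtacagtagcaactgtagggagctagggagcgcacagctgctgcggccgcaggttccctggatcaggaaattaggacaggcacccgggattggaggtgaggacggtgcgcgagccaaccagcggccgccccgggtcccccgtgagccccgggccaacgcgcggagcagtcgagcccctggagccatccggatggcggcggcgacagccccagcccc
Pycr1: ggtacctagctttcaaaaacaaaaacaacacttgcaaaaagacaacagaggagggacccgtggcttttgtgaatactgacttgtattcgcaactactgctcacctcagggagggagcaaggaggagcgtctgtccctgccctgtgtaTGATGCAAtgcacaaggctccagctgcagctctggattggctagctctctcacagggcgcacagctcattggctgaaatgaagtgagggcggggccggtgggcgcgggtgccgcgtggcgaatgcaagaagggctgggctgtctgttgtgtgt
Asns: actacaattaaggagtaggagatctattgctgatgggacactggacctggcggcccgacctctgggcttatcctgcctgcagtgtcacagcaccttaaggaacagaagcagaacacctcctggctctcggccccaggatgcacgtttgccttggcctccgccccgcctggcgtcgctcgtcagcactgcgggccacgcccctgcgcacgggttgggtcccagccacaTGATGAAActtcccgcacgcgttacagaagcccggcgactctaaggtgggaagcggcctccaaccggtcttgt
Slc1a4: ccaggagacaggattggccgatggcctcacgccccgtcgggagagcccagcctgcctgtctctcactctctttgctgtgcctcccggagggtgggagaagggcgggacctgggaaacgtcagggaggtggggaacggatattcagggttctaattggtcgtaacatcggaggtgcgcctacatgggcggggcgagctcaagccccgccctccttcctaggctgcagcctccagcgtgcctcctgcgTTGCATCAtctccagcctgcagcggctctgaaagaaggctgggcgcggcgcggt

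Read beside these sequences, Pycr1, which completes proline synthesis, was at 17.03, 43.8 and 47.3 CPM in KO 0, KO 1 and KO 2 against 23.3 and 18.1 in WT (log2 0.80, SE 0.46). Slc1a4, a transporter of alanine, serine and cysteine, was at 116, 198 and 212 CPM against 138 and 113 (0.48, SE 0.37). As for Asns, KO 0 lay at the WT level in both.

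Cell division genes showed a similar direction with a different order of libraries. All 34 mitosis genes had a positive difference (median log2 0.39), yet none had KO libraries all above WT, beside 9.12% of all genes. The centred median level was lowest in WT 0 (-0.50) and KO 0 (-0.28), near the mean in WT 2 (0.03), and highest in KO 1 (0.21) and KO 2 (0.51). Without WT 0 the median was 0.15 with 31 of 34 positive, and without WT 2 it was 0.72. For the 35 genes of G1/S and DNA replication, 33 were positive with a median of 0.26. KO lay above WT for 2 of the 35, beside 9.12% of all genes. Without WT 0, only 19 of 35 were positive and the median was 0.05. WT 0 is also the library rich in muscle RNA.

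Top2a, the topoisomerase that untangles replicated chromosomes and the most abundant mitosis gene, was at 158, 221 and 289 CPM in KO and 148 and 197 in WT (log2 0.36, SE 0.45). Cdc25b, a phosphatase that activates cyclin-dependent kinases, had the smallest p, at 14.7, 26.9 and 31.2 CPM against 16.9 and 17.6 (0.49, SE 0.28). Cyclin A2, Ccna2, had the largest difference, at 42.7, 88.8 and 113 against 38.4 and 57.2 (0.77, SE 0.47). In each of the 3 genes KO 0 lay within or below the WT values. Pcna, the sliding clamp of DNA polymerase, was at 20.6, 28.3 and 30.4 CPM against 15.8 and 20.6 (0.54, SE 0.24). Cyclin D2, Ccnd2, the most abundant G1/S gene, ran the other way, at 1369, 958 and 836 CPM against 1117 and 1122 (-0.09, SE 0.33), and so did cyclin D1, Ccnd1, at 772, 354 and 316 against 452 and 665 (-0.22, SE 0.60).

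In the same promoter windows the cell cycle homology region was searched as TTTGAA on both strands (the complementary strand then reads TTCAAA), an element through which mitotic genes are known to be repressed outside division. Of 28 mitosis genes with a promoter in the table, 20 held it (71.4%), against 20.2% of all genes. Counted by promoter it was 22 of 30 (73.3%) against 17.9%. This list was made of known mitotic genes, so here too the share describes the list. All 20 genes with the element had a positive difference with a median of 0.39, as did all 8 without it, with a median of 0.40. Of the genes with the element, the 2 with the smallest p-values are shown. Cdk1, the kinase that starts mitosis, holds 2 copies in its window, and Cenpa, the histone variant of centromeres, holds 1. They lie at chr10:69352863-69353162 (minus strand) and chr5:30666636-30666935 (plus strand), with the element in capitals.
Cdk1: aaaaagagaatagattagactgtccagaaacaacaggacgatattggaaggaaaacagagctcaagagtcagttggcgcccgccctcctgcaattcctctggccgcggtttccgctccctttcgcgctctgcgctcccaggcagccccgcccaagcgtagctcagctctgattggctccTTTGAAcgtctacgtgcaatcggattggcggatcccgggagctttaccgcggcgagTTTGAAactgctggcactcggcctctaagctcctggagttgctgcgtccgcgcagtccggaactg
Cenpa: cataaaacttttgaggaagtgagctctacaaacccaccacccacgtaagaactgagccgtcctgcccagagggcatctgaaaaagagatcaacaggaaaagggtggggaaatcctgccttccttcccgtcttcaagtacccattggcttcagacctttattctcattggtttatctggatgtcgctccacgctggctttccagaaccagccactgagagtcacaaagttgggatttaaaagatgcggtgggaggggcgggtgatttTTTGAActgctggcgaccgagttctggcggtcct
Cdk1 was at 50.8, 86.7 and 108 CPM in KO against 48.5 and 62.7 in WT (log2 0.56, SE 0.36), and Cenpa at 25.6, 35.96 and 42.1 against 18.7 and 26.01 (0.63, SE 0.49). In both genes KO 0 lay between the WT libraries.

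**Figure D4:**
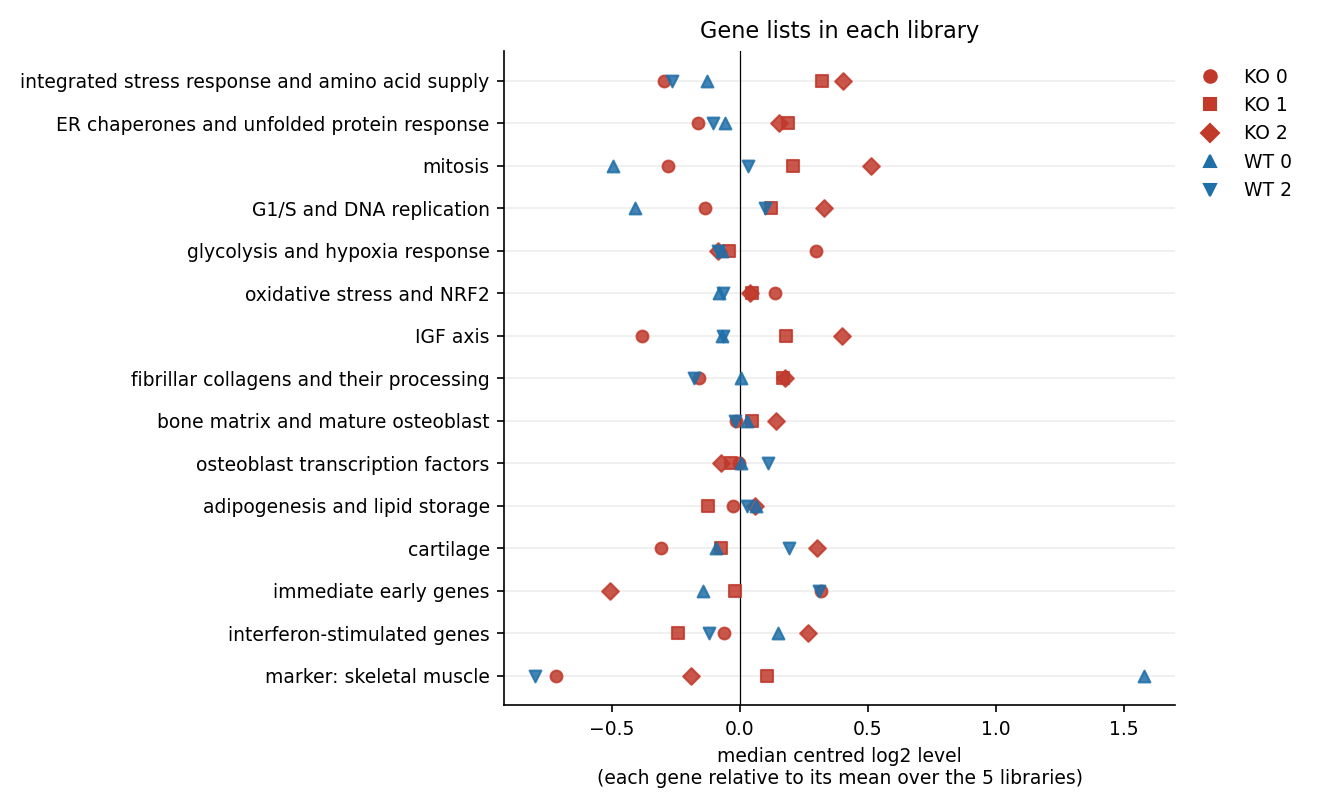
Median over the tested genes of each list (rows) of the log2 level, centred on each gene's mean over the 5 libraries (horizontal axis), for each KO library (red) and WT library (blue). In the stress response row KO 0 (-0.29) sits with WT, in the glycolysis row it stands alone at 0.30, and in the muscle row WT 0 stands alone at 1.58.

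Glycolysis and hypoxia genes had 12 of 36 members with separated libraries, against 17.1% of all genes. Of 36 tested, 30 were positive (median log2 0.14), 11 had all KO libraries above WT and 1 below, and none was called. The centred median level was 0.30 in KO 0 and between -0.09 and -0.04 in the other 4 libraries, and without KO 0 19 of 36 members were positive and the median was 0.04. Bnip3, a mitophagy receptor induced in low oxygen, was at 155, 147 and 137 CPM in KO against 99.6 and 105 in WT (0.52, SE 0.68). Pdk1, which keeps pyruvate out of the mitochondrion, was at 128 in each KO library and 103 and 92.5 in WT (0.38, SE 0.71). The carbonic anhydrase gene Car9 was at 83.7, 70.7 and 75.5 CPM against 59.3 and 55.8 (0.41, SE 0.71). With Egln3 (above), these genes were separated between the groups in all 3 KO libraries, KO 0 included.

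In conditioned medium the genes Bnip3, Pdk1 and Car9 varied more within a genotype. Bnip3 was at 79.02, 18.5 and 14.9 CPM in KO and 80.9, 26.3 and 95.6 in WT there (log2 -0.85, SE 0.61). Pdk1 ran from 8.95 to 76.04 CPM in KO and from 34.7 to 74.2 in WT (-0.81, SE 0.64), and Car9 from 6.63 to 46.3 and from 15.2 to 46.9 (-0.57, SE 0.64). Their interactions were not called (smallest adjusted p = 0.819 in edgeR). Pkm, the most abundant member and the enzyme of the last step of glycolysis, showed only the spread of KO 0, at 2155, 1317 and 1299 CPM against 1730 and 1724 (log2 -0.12, SE 0.53). Eno2, the neuronal enolase, had the smallest p of the list and lower values in KO, at 12.4, 11.3 and 8.02 CPM against 16.6 and 16.3 (-0.64, SE 0.23, adjusted p = 0.998 in edgeR).

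The oxidative stress list, targets of the factor NRF2 and metal-binding proteins, had 23 of 31 members positive (median log2 0.17), 9 with KO above WT and none below, beside 9.12% and 8.01% of all genes. Its centred median was 0.14, 0.05 and 0.04 in the KO libraries and -0.08 and -0.07 in WT, so here KO 0 did not side with WT. Leaving out any 1 library moved the median only between 0.14 and 0.19. Sod1, cytosolic superoxide dismutase, had the smallest p, at 39.9, 40.8 and 45.7 CPM against 34.0 and 30.6 (0.38, SE 0.15, adjusted p = 0.998 in edgeR). The metallothionein Mt2 was at 549, 734 and 678 CPM against 471 and 402 (0.58, SE 0.42) and Mt1 at 469, 484 and 409 against 354 and 331 (0.41, SE 0.28). Srxn1, which restores peroxiredoxins, was at 124, 141 and 151 against 96.7 and 109 (0.43, SE 0.34). Hmox1, heme oxygenase 1, overlapped, at 914, 434 and 348 CPM against 499 and 625 (0.01, SE 0.50).

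IGF axis genes were positive for 12 of 17 (median log2 0.19). Igfbp2 (above), Stc1 and Stc2 lay above WT in all KO libraries, as did 9.12% of all genes. Igf1 spread widely within KO, at 44.6, 281 and 322 CPM against 116 and 87.2 in WT (1.09, SE 0.84). Igf2, the most abundant, was at 1877, 2773 and 3235 against 2334 and 2246 (0.20, SE 0.32). For both growth factors KO 0 was the lowest of the 5 libraries. Stc1, the glycoprotein stanniocalcin 1, was at 18.7, 23.9 and 27.6 CPM against 12.02 and 18.7 (0.61, SE 0.25).

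Most osteoblast genes overlapped between the genotypes. Of 27 tested transcription factors, 9 were positive with a median log2 difference of -0.08, and Prrx1, the most abundant, was at 1020, 949 and 874 CPM in KO and 987 and 1042 in WT (-0.10, SE 0.19). Runx2, required for osteoblast formation, was at 94.6, 87.6 and 80.5 against 82.5 and 96.5 (-0.03, SE 0.13, interval -0.31 to 0.25). Sox4 had the smallest p (log2 -0.26, SE 0.16). Libraries were separated for 2 of the 27, both homeobox genes, beside 17.1% of all genes. Msx1 lay above WT at 24.9, 21.01 and 19.6 CPM against 18.2 and 18.7 (0.24, SE 0.45). Prrx2 lay below it at 68.5, 67.4 and 66.5 against 71.9 and 75.9 (-0.13, SE 0.41). For bone matrix and mature osteoblast genes, 12 of 25 tested were positive with a median of -0.0033, and no member had separated libraries. Alkaline phosphatase, Alpl, was at 34.0, 82.7 and 106 CPM against 34.0 and 48.0 (0.85, SE 0.52), with KO 0 at the level of WT 0. Fkbp11, a prolyl isomerase of the ER, had the smallest p (log2 0.76, SE 0.29) at 17.5, 36.5 and 39.6 CPM against 19.98 and 16.9.

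Collagen genes split along the KO libraries. Col1a1 was at 12544, 20990 and 22126 CPM in KO 0, KO 1 and KO 2 and at 15795 and 12989 in WT (log2 0.37, SE 0.42), and Col1a2 at 8228, 19260 and 21022 against 12368 and 9099 (0.59, SE 0.50). Col3a1 ran from 5214 in KO 0 to 17910 in KO 2, with 9464 and 7297 in WT. KO 0 lay below both WT libraries in all 3 genes. Over the list of fibrillar collagens and their processing, 27 of 36 were positive with a median of 0.12. Of the 36, KO lay above WT for 4 and below for 2, beside 9.12% and 8.01% of all genes. Col11a1 had the smallest p, at 1633, 2910 and 3333 CPM against 1776 and 1771 (0.57, SE 0.29). Periostin, Postn, showed the same spread at 213, 1002 and 1292 CPM against 691 and 316, as did the Wnt antagonist Sfrp1 at 116, 694 and 835 against 352 and 200.3.

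Cartilage genes were positive for 9 of 19 (median log2 -0.01), and 4 members lay below WT in all KO libraries with none above, beside 8.01% and 9.12% of all genes. Sox9, the factor that sets the cartilage fate, was at 104, 90.5 and 96.2 CPM against 113 and 131 (-0.33, SE 0.22). Its partner Sox6 had the smallest p, at 22.6, 17.2 and 18.3 against 23.2 and 23.5 (-0.27, SE 0.14), and aggrecan, Acan, was at 108, 83.3 and 126 against 127 and 162 (-0.45, SE 0.42). Col2a1, their most abundant product, overlapped (1627, 1849 and 2354 against 1457 and 2462 CPM). The list's median was 0.20 without KO 0 and -0.24 without WT 0.

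In the adipogenesis list every member with separated libraries lay below WT. Of 31 tested genes, 12 were positive (median log2 -0.09), and 9 had all KO libraries below both WT libraries with none above, beside 8.01% and 9.12% of all genes. The 9 were Adipoq, Cd36, Gpd1, Pnpla2, Lipe, Zfp423, Apoe, Angptl4 and Klf5, which serve fat hormone secretion, fatty acid uptake, lipid breakdown and fat cell commitment. Zfp423, a commitment factor of preadipocytes, was at 9.94, 8.89 and 9.23 CPM against 12.9 and 14.8 (-0.57, SE 0.28). Angptl4, an inhibitor of lipoprotein lipase, was at 62.8, 50.4 and 47.0 against 72.1 and 70.2 (-0.41, SE 0.24). Apoe had the smallest p, and Adipoq was scarce, at 0.744, 0.564 and 0.472 CPM against 2.04 and 0.839. The main regulators Pparg (-0.01, SE 0.33) and Cebpa (-0.05, SE 0.25) overlapped. Other members ran the other way in KO 1 and KO 2, as Fabp4 at 8.72, 31.3 and 38.7 CPM against 12.3 and 10.5 (1.204, SE 0.56), and Scd1, the most abundant, at 226, 407 and 502 against 344 and 315 (0.20, SE 0.35). Without KO 1 the median was -0.02, with 15 of 30 tested members positive.

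Signals to bone-resorbing cells were measured too. RANKL, Tnfsf11, was at 266, 340 and 351 CPM in KO against 260 and 257 in WT, KO above (log2 0.30, SE 0.50), and its decoy Tnfrsf11b at 29.9, 18.2 and 18.6 against 25.03 and 36.4 (-0.47, SE 0.36). The list of osteoclast-regulating factors gave 12 of 21 positive with a median of 0.04. Fstl1, the most abundant, was at 5438, 7002 and 6967 CPM against 6412 and 5221 (0.15, SE 0.43), and Sema3a, which restrains osteoclasts, had the smallest p, at 93.7, 106 and 89.8 against 68.9 and 79.2 (0.38, SE 0.20). Of 11 marker genes of osteoclasts themselves, 7 were high enough to test, and 5 of them were positive (median log2 0.40). KO lay above WT for 2 of the 7, beside 9.12% of all genes. Ctsk, the bone-degrading cathepsin K, was the most abundant at 109, 157 and 148 CPM in KO against 112 and 96.5 in WT, and the transcription factor gene Nfatc1 (36.1 to 59.1 CPM) and the integrin gene Itgb3 (13.7 to 18.8 CPM) were also present. Atp6v0d2, a proton pump subunit, had the smallest p and lay above WT in KO at 1.149, 1.62 and 1.35 CPM against 0.723 and 0.769 (0.87, SE 0.31, adjusted p = 0.998 in edgeR). Acp5, tartrate-resistant acid phosphatase, was separated too, at 1.35, 2.12 and 1.82 CPM against 0.986 and 1.33. Both rested on few fragments, Atp6v0d2 on 17, 23 and 20 against 11 and 11, and Acp5 on 20, 30 and 27 against 15 and 19. Nfatc1 (log2 -0.12, SE 0.29) and Tnfrsf11a ran the other way and overlapped. Tnfrsf11a was at 0.744, 0.423 and 0.337 CPM against 0.723 and 0.769 (-0.56, SE 0.63). Calcr stayed at 0.141 CPM or less, and Dcstamp, a cell fusion gene, was at 0.

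Cytokines and chemokines were positive for 16 of 32 tested (median log2 0.02). Cxcl5, a neutrophil attractant, had the smallest p and was lower in every KO library, at 524, 431 and 365.7 CPM against 594 and 677 (-0.53, SE 0.20, adjusted p = 0.998 in edgeR). Cxcl14, the most abundant, followed KO 1 and KO 2, at 555, 1991 and 1720 CPM against 776 and 699 (0.95, SE 0.62). Il33 was at 3.45, 26.9 and 35.6 against 6.97 and 3.71 (2.04, SE 0.85), and Il6 at 12.5, 59.1 and 50.2 against 21.0 and 18.2 (1.05, SE 0.95). KO 0 was the lowest library for all of these but Cxcl5. Interferon-stimulated genes were positive for 23 of 46 (median 0.01). Ifitm3, the most abundant, overlapped (-0.04, SE 0.13), and Psmb8, an immunoproteasome subunit with the smallest p, was at 6.56, 8.18 and 16.6 CPM against 6.31 and 6.36 (0.72, SE 0.41). Immediate early genes, which respond quickly to serum and handling, were positive for 11 of 32 (median -0.15), with centred medians of 0.32 in KO 0 and 0.31 in WT 2 and -0.51 in KO 2. Cyr61, the most abundant of them, was at 1376, 1259 and 753 CPM against 986 and 1217 (0.04, SE 0.67), and the transcription factor gene Etv5, with the smallest p, at 45.2, 59.2 and 59.97 against 38.4 and 45.7 (0.38, SE 0.15).

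In the growth factor lists the medians were near 0. Wnt ligands, antagonists and targets were positive for 16 of 32. Of the 32, 5 members lay below WT and 1 above, beside 8.01% and 9.12% of all genes. The ligand Wnt5a, below WT, was at 137, 120 and 122 CPM against 141 and 154 (log2 -0.22, SE 0.12). Wnt5b, with the smallest p of the list, lay above it at 4.87, 7.83 and 7.61 against 4.01 and 3.36 (0.88, SE 0.48). The most abundant, the receptor Fzd1, was at 472 to 491 CPM in KO and 474 and 495 in WT. BMP and TGF-beta genes were positive for 16 of 39 (median -0.01). Tgfb2 had the smallest p and lay below WT in each KO library, at 18.9, 16.7 and 19.2 CPM against 27.3 and 22.9 (-0.46, SE 0.19), and Bmp4 lay above it, at 28.5, 30.9 and 33.9 against 25.1 and 24.2 (0.34, SE 0.18). The BMP antagonist gene Chrdl1 spread widely within KO, at 1.89, 33.1 and 55.9 CPM against 5.19 and 4.06. For sterol and fatty acid synthesis, 9 of 32 were positive (median -0.05), and 4 members had KO below WT (8.01% of all genes), with none above. The entry of the desaturase gene Scd2, counted together with Scd3 and Mir5114, was the most abundant and overlapped (-0.08, SE 0.36), and Idi1, of isoprenoid synthesis, had the smallest p, at 2.77, 4.09 and 2.56 CPM against 4.80 and 4.75 (-0.60, SE 0.45).

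How precisely a lack of difference was measured can be read from the intervals. The 95% interval of the log2 difference lay within 2-fold either way for 9456 of 13603 genes (69.5%), and for 88.1% of the 7634 genes with a mean of at least 20 CPM. The median SE over all genes was 0.23 (quartiles 0.16 and 0.38), and 0.17 at 20 CPM or more. For Runx2, Gnaq and Rhoa the interval thus held no 2-fold change, while for Alpl, Igf1, Trib3 and F2rl1 it did. With 3 libraries against 2, an exact permutation test of a single gene has 10 arrangements and cannot give a p under 0.1. The calls thus rest on the spread shared across genes and across the 4 groups of the fit.

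**Figure D5:**
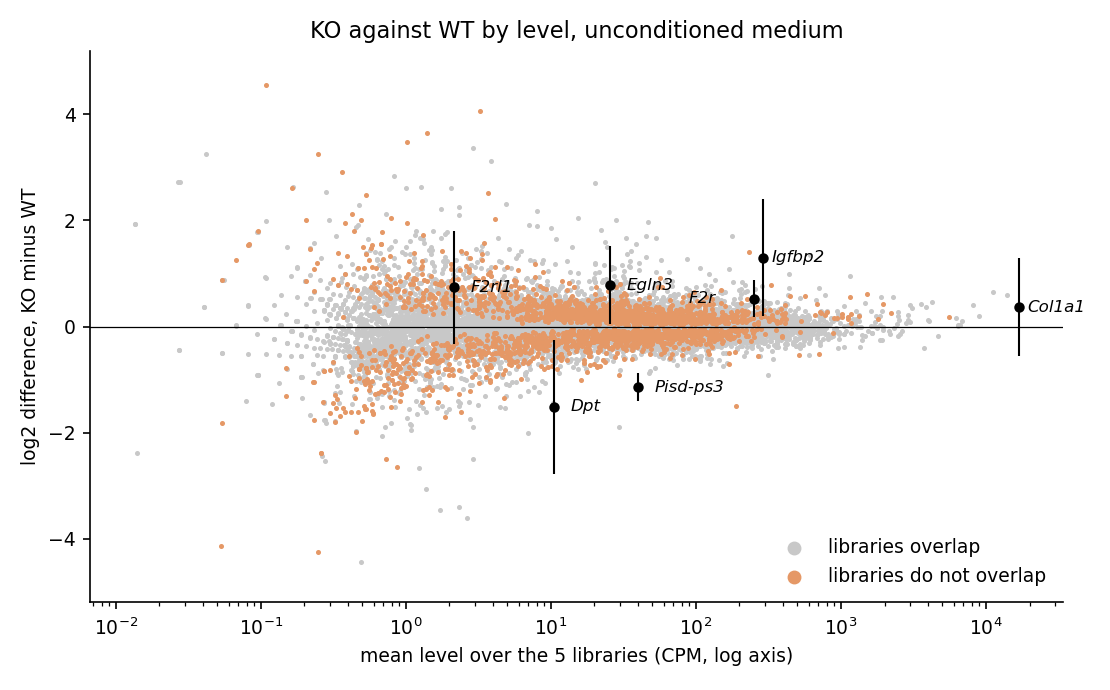
Log2 difference, KO minus WT (vertical axis), against mean level over the 5 libraries (CPM, log axis) for all 13603 genes; orange points are the 17.1% of genes whose KO and WT libraries do not overlap, and black points with bars are named genes with their 95% intervals. The cloud is centred near 0 and narrows with level, and the interval of Pisd-ps3 (-1.41 to -0.87) lies away from 0.

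Whether the genotype difference changed with the medium was tested as an interaction, and 0 of 13603 genes were called (0%) in edgeR, DESeq2 and limma-voom. An unadjusted p under 0.05 was reached by 412 genes in edgeR (3.03%), and the smallest adjusted p was 0.819. The log2 differences in unconditioned and conditioned medium share no library, and across the 13603 genes, which are not independent replicates, they had a correlation of r = 0.303. KO libraries with the same number in the 2 media deviated together from their group means (r = 0.281 to 0.354 for the 3 numbers), so r is a description only.

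A change confined to 1 start of a gene can hide in its sum, so start-site groups were tested separately. Of 16972 groups, none was called in edgeR (0%), 397 had an unadjusted p under 0.05 (2.34%), and DESeq2 called 31. The smallest p in edgeR belonged to Bbc3, the gene of the cell death protein PUMA. One of its groups was at 0 in all 3 KO libraries and at 2.36 and 3.01 CPM in WT (35.7 and 42.7 estimated fragments), while its main group overlapped, at 19.7, 14.6 and 14.1 CPM against 17 and 12.3. The fatty acid transporter gene Cd36 also had 1 group at 0 in KO, against 2.36 and 3.22 CPM in WT, but its other group lay above WT in every KO library, at 3.11, 2.47 and 1.82 against 1.51 and 0.910. Prickle2, of the planar cell polarity pathway, had 1 group at 18.6, 20.4 and 18.1 CPM in KO and at 0 and 0.3499 in WT, and another at 2.63, 2.97 and 8.57 against 19.9 and 22.3. Lif, a cytokine that acts on osteoblasts and osteoclasts, also divided, with 15.8, 14.3 and 8.43 CPM against 2.69 and 3.43 in 1 group and 8.17, 7.78 and 3.44 against 14.2 and 18.7 in the other. In Cd36, Prickle2 and Lif the groups thus differed in opposite directions. These are estimates that the authors' software divided among overlapping transcripts, 74.1% of them whole numbers (with a tolerance of 0) against 94.3% for genes, and the part of that division in the differences was not tested.

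The authors' deposited table of start-site tests marks 362 of 16407 groups as significant in this comparison (2.21%). Of the 344 of these also tested here, 230 were higher in KO and 114 lower by the edgeR estimate. Libraries did not overlap for 102, 49 had an unadjusted p under 0.05 and 0 were called. The share without overlap over all start-site groups was not counted, so nothing is concluded from the 102. The authors' deposited tables further mark 272 of 20461 transcripts (1.33%), 54 of 3708 splicing tests (1.46%) and 24 of 2509 promoter-use tests (0.957%). How those tests treated the WT library listed under 2 numbers is not given in the sources used here.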

How the data were processed

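RNA was sequenced from 12 samples, of which the 6 unconditioned controls are compared here. The submitters' processing notes name the tools CASAVA 1.8.2, TopHat2 2.0.9, Cufflinks and Cuffdiff 2.1.1, and as genome GRCm38 (mm10). The values are raw fragments from Cuffdiff, per the file headers, on an estimated count scale. They come as deposited by the authors for each gene, start-site group and transcript. The deposited FPKM values, which Cuffdiff scaled between libraries, served only for alternative fits and to rank the highest levels. The authors' deposited p-values and q-values gave only the counts of their own calls. Other deposited columns, per the file headers, gave identifiers, positions and lengths. Starts are printed 1 higher than deposited, since 11653 deposited gene starts were 1 below an annotated start and 1092 matched one.

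Of 25511 genes in the table, 1714 were without a symbol (2.69% to 3.10% of fragments) and 407 had several. Cuffdiff marked 50 entries as failed and 2 as exceeding its depth limit, and these were kept. Fragments were rounded and tested by robust quasi-likelihood in edgeR 4.0.16 (R 4.3.3), after filterByExpr and TMM scaling, in 1 fit of the 4 groups, over 11 distinct libraries and 7 residual degrees of freedom. A gene was called where its Benjamini-Hochberg adjusted p, taken over every gene tested, was under 0.05. SE is the log2 difference over the square root of F. Centred levels use log2(CPM + 0.5). The script was tested on simulated data.

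Named genes are those called, the 10 largest differences each way (p under 0.05, no overlap, at least 5 CPM), the receptors and genes within 1 Mb of F2rl1, the 10 highest by FPKM, and list members, with at least the most abundant and the smallest p of each list described. Lists of other cell types given as summed levels are an exception, with no such members named. One item that this rule names is not reported here. The comparison, the 42 lists and the genes were chosen with earlier results of these data known. Alternatives used limma 3.58.1 and DESeq2 1.42.0, other filters and scalings, and fits without single libraries.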

Additional observations from a re-analysis of the deposited data

How the results depend on the processing

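Pisd-ps3 was called in the fit as reported and with both identical WT libraries kept, DESeq2, no filter, a filter of 1 CPM in 5 libraries or no robust dispersion, each with 1 gene called. With only the unconditioned libraries, library size scaling, limma-voom, log2(FPKM + 1), log2(FPKM + 0.1) or the replicate block, 0 genes were called, and the adjusted p of Pisd-ps3 was 0.834, 0.0827, 0.0554, 0.193, 0.165 and 0.333. An unadjusted p under 0.05 was reached by 225 to 763 genes over these 11 settings. Leaving out 1 library gave 0 to 2 genes called. Leaving out both KO libraries numbered 0, which were chosen because their values stood apart, gave 659 calls (288 higher, 371 lower in KO). Among F2r and the 10 genes with the largest differences each way, 12 not called in the main fit were called there, F2r and Prelp among them. Other genes described above were not counted, and the 659 calls are no independent evidence. Start-site groups called numbered 0, but 31 in DESeq2 and 0 to 6 without 1 library. Interaction calls stayed at 0 in the 8 alternatives run. F2rl1 was not called in any setting, and its log2 difference ran from 0.29 (log2(FPKM + 1)) to 0.87. Direction was followed for F2rl1, F2r and the 10 genes with the largest differences each way, and none of them reversed. Other named genes were not followed. Of 287 list medians, 38 moved. Library size scaling shifted the median of all genes to -0.04, with 43.1% positive. The cause of these changes was not tested.

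The replicate numbers were not taken to pair the samples. Deviations of KO and WT libraries with the same number correlated at -0.326 (number 0) and -0.265 (number 2). KO libraries with the same number in the 2 media correlated at 0.281 to 0.354, and WT libraries at -0.126 (number 0) and 0.478 (number 2). The 2 distinct unconditioned WT libraries deviate equally and oppositely from their mean. The values with WT for numbers 0 and 2 are thus not separate checks and cannot decide whether the numbers pair the samples. The replicate block, with 0 calls and 225 genes at an unadjusted p under 0.05, appears here only. Depth limits low genes such as F2rl1, which rests on 20 to 46 fragments a library.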
